A study of Homo sapiens with 6 samples.

Results

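The RNA-sensing genes DDX58, IFIH1, DHX58, TLR3 and EIF2AK2, the RNA-editing gene ADAR and the signalling genes MAVS, TBK1 and IRF3 were described in 92.1 cells, an established line of human ocular melanoma. These 9 genes were taken by name from 11387 genes that had FPKM values, a level per transcript scaled for its length and for the size of the library. The shALKBH3 group held 3 libraries of 92.1 cells in which ALKBH3, an enzyme that demethylates alkylated DNA and RNA, was knocked down. The NC group held 3 libraries of 92.1 cells labelled as wild type. The labels do not say whether NC cells carry a control hairpin, whether the knockdown line is a single clone, or whether libraries of a group came from separate cultures. P-values therefore measure the spread between these libraries, which may be technical.

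Cells detect long or unusually ended RNA duplexes through several proteins. RIG-I (encoded by DDX58) and MDA5 (encoded by IFIH1) are cytosolic helicases that bind double-stranded RNA and signal through MAVS on mitochondria, which leads through the kinase TBK1 to the transcription factor IRF3 and to interferon. LGP2 (encoded by DHX58) is a related helicase that lacks the signalling domains, TLR3 reads duplex RNA in endosomes, and PKR (encoded by EIF2AK2) stops translation by phosphorylating eIF2 alpha. ADAR1 (encoded by ADAR) converts adenosine to inosine in duplexes and so keeps the cell's own RNA from being sensed. Most of the sensors are themselves interferon-inducible.

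The start-site regions of these genes were examined for the interferon-stimulated response element, written here as GAAANNGAAA on either strand, because several of them moved together. Windows of 300 bases, 250 before and 50 after an annotated start, came from RefSeq on GRCh38.p14, and 7 of the 9 genes matched, with 9 windows in all. The letters were found in 3.57% of the 35116 windows of that table. They were found in the windows of IFIH1, TLR3 and EIF2AK2, and not in those of DDX58, ADAR (3 windows), MAVS or TBK1. The fixed spacing leaves out other arrangements, such as GAAACGAAA in the DDX58 window. DHX58 and IRF3 had no entry. The IFIH1 window (chr2:162318635-162318934, minus strand) held 3 matches, of which 2 overlapped, starting 159, 153 and 21 bases before the start. The TLR3 window (chr4:186068906-186069205, plus strand) held 1 match starting 4 bases before the start, and the EIF2AK2 window (chr2:37156931-37157230, minus strand) 1 match starting 6 bases before it. A match describes letters and not a bound site. In the 3 sequences, written 5′ to 3′ in the direction of the gene, capitals mark the matches.
IFIH1: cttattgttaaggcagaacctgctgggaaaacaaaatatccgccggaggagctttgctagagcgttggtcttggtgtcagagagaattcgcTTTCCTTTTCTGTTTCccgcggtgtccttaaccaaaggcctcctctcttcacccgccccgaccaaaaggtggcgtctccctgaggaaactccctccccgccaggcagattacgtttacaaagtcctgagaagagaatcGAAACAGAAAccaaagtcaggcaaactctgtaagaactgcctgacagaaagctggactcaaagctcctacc
TLR3: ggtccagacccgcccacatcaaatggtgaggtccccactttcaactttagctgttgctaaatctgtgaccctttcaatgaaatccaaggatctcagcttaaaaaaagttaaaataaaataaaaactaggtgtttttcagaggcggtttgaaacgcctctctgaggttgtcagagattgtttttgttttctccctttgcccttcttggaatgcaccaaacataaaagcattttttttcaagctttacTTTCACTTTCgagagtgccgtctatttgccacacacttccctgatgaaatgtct
EIF2AK2: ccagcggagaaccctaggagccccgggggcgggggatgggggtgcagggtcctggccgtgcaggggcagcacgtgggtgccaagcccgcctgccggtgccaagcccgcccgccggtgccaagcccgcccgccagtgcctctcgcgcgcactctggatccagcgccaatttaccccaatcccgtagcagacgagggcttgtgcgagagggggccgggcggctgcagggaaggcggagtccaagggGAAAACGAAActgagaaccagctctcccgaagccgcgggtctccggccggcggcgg

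The libraries were first checked on the knocked-down gene and on cell markers. ALKBH3 measured 3.29, 3.60 and 4.24 FPKM in shALKBH3 replicates 1, 2 and 3, against 10.5, 10.6 and 9.19 FPKM in NC replicates 1, 2 and 3. It fell by 1.24 on the scale of log2(FPKM + 1) (limma adjusted p = 0.0079, or 0.051 without NC replicate 1). The sum of FPKM over all matched transcripts lay between 326408 and 333506 in shALKBH3 libraries and between 340522 and 360889 in NC libraries, and was not rescaled. Sequencing depth is unknown, because the values are FPKM without counts. Of 10 melanocyte and melanoma markers, 1 had a listed transcript, MITF. It was at 10.3 to 14.0 FPKM in shALKBH3 and 3.29 to 9.53 FPKM in NC libraries. MLANA, PMEL, TYR, TYRP1, DCT, SOX10, S100B, S100A1 and EDNRB had no listed transcript. The cell type is thus taken from the labels, and these markers as a set do not bear it out. Of 12 leukocyte markers 2 were listed, CD68 and CSF1R, and their sum was 34.4 to 38.2 FPKM in shALKBH3 and 15.8 to 19.7 FPKM in NC libraries. CD68, a lysosomal protein gene, accounted for most of it and rose (log2 difference 1.10, limma adjusted p = 0.010). The pan-leukocyte marker PTPRC had no listed transcript. Of 8 fibroblast markers 4 were listed, with a sum of 24.2 to 29.3 FPKM in shALKBH3 and 24.1 to 39.9 FPKM in NC libraries. The highest of those sums, in NC replicate 1, included 7.22 FPKM of COL1A2 and 5.46 FPKM of COL3A1. The part of these markers in the results was not tested.

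All 9 genes averaged 1 FPKM or more across libraries and entered the test, TLR3 through its level in shALKBH3, since its NC mean was 0.819 FPKM. DDX58, IFIH1, TLR3, EIF2AK2 and ADAR rose in shALKBH3 (limma, adjusted p below 0.05), and none of the 9 fell. In such bulk RNA, fewer cells of a type and less RNA per cell cannot be told apart. Among all 10475 genes tested, 134 (1.28%) rose and 50 (0.477%) fell. With library sums set equal, the same 5 of the 9 rose, and 151 of all genes rose and 24 fell. Before adjustment, a p below 0.05 was reached by 6 of the 9 genes as higher and 1 as lower, beside 941 (8.98%) and 854 (8.15%) of all genes. The median log2 difference was 0.76 for the 9 genes and -0.01 for all genes tested. Every shALKBH3 library lay above every NC library for 6 of the 9 genes, as for 12.9% of all genes, and below for 1 of them, IRF3, as for 12.0% of all genes. DDX58 and IFIH1 also passed when any 1 library was left out. With 1 library left out, 2 of the 9 rose without NC replicate 1, shALKBH3 replicate 2 or shALKBH3 replicate 3, and 3 rose without any of the other 3. EIF2AK2 passed in 3 of those 6 fits, and TLR3 and ADAR in 0 of 6, where the adjusted p reached 0.12 for TLR3 (without shALKBH3 replicate 3) and 0.18 for ADAR (without shALKBH3 replicate 3).

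**Figure D1:**
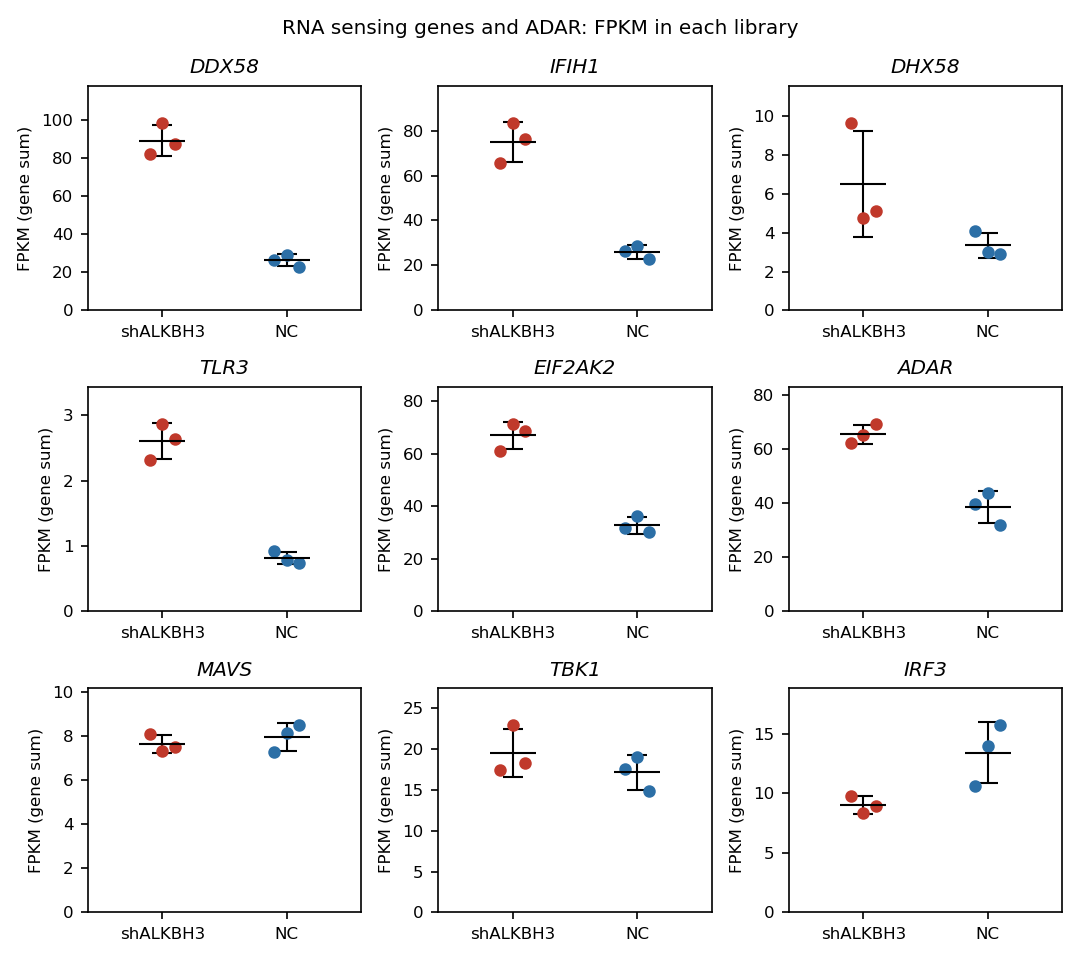
FPKM of each gene, summed over its listed transcripts, in each of the 3 shALKBH3 (red) and 3 NC (blue) libraries, with replicates 1 to 3 from left to right in each group, the mean as a horizontal line and the SD as a bar; each panel has its own axis from 0. The groups are apart for DDX58, IFIH1, TLR3, EIF2AK2, ADAR, DHX58 and IRF3 and overlap for MAVS and TBK1.

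The cytosolic helicase genes DDX58 and IFIH1 had the greatest log2 differences of the 9 with 1 FPKM added, while TLR3 had a greater ratio of means than IFIH1. DDX58 (ENSG00000107201, chromosome 9) was at 82.1, 98.2 and 87.2 FPKM in shALKBH3 replicates 1, 2 and 3, against 26.4, 29.4 and 23.0 FPKM in NC replicates 1, 2 and 3. The lowest knockdown library was far above the highest control, and the spread within a group was small beside that gap. The means were 89.2 ± 8.24 FPKM in shALKBH3 and 26.2 ± 3.17 FPKM in NC (SD, 3 libraries each), a ratio of 3.40. On the scale of log2(FPKM + 1), which serves for every difference given here and understates changes of low genes, DDX58 rose by 1.73 (SE 0.117, limma adjusted p = 0.0030). It stood 18th by size of rise among the 10475 genes.

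IFIH1 (ENSG00000115267, chromosome 2), the MDA5 gene, was at 65.4, 83.2 and 76.1 FPKM in shALKBH3 replicates 1, 2 and 3, against 26.4, 28.7 and 22.7 FPKM in NC replicates 1, 2 and 3. The groups did not overlap, and replicate 2 was the highest library of both groups, as for DDX58. IFIH1 rose by 1.49 on the log2 scale (SE 0.127, limma adjusted p = 0.0051), a ratio of group means of 2.89.

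DHX58 (ENSG00000108771, chromosome 17), the gene of the third helicase, LGP2, was at 9.63, 4.74 and 5.13 FPKM in shALKBH3 replicates 1, 2 and 3, against 4.10, 3.02 and 2.91 FPKM in NC replicates 1, 2 and 3. All 3 knockdown libraries were above all 3 controls, but shALKBH3 replicate 1 was far above the other two of its group. The log2 difference was 0.74 with a 95% confidence interval, not adjusted for the number of genes, of 0.10 to 1.38, and it did not pass (limma adjusted p = 0.24). Without shALKBH3 replicate 1 the log2 difference was 0.46.

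TLR3 and EIF2AK2 encode the endosomal receptor and the translation-stopping kinase. TLR3 (ENSG00000164342, chromosome 4) was the lowest of the 9 genes, at 2.31, 2.86 and 2.64 FPKM in shALKBH3 replicates 1, 2 and 3, against 0.923, 0.787 and 0.746 FPKM in NC replicates 1, 2 and 3. Its group means differed by a ratio of 3.18, close to that of DDX58, while its log2 rise was 0.98 (SE 0.124, limma adjusted p = 0.023) because the added 1 FPKM weighs more at this level. With 0.1 FPKM added in its place the log2 rise was 1.56, beside 1.53 for IFIH1. With no filter on low values TLR3 also rose (limma adjusted p = 0.021).

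EIF2AK2 (ENSG00000055332, chromosome 2) was at 61.1, 71.2 and 68.7 FPKM in shALKBH3 replicates 1, 2 and 3, against 31.9, 36.4 and 30.1 FPKM in NC replicates 1, 2 and 3. The groups were well apart, with a ratio of means of 2.04, a log2 rise of 1.01 and a limma adjusted p of 0.010 (SE 0.103). EIF2AK2 no longer passed in limma when NC replicate 1 (adjusted p = 0.060), shALKBH3 replicate 2 (0.058) or shALKBH3 replicate 3 (0.070) was left out. The other kinases that phosphorylate eIF2 alpha, named here after their values were seen, had log2 differences of 0.26 (EIF2AK1, the heme-regulated kinase), 0.32 (EIF2AK3, the PERK gene) and 0.09 (EIF2AK4, the GCN2 gene), and none of them passed (limma adjusted p = 0.20, 0.32 and 0.60). For EIF2AK1 every shALKBH3 library lay above every NC library (95% confidence interval 0.07 to 0.46, not adjusted for the number of genes). The groups overlapped for EIF2AK3 and EIF2AK4.

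**Figure D2:**
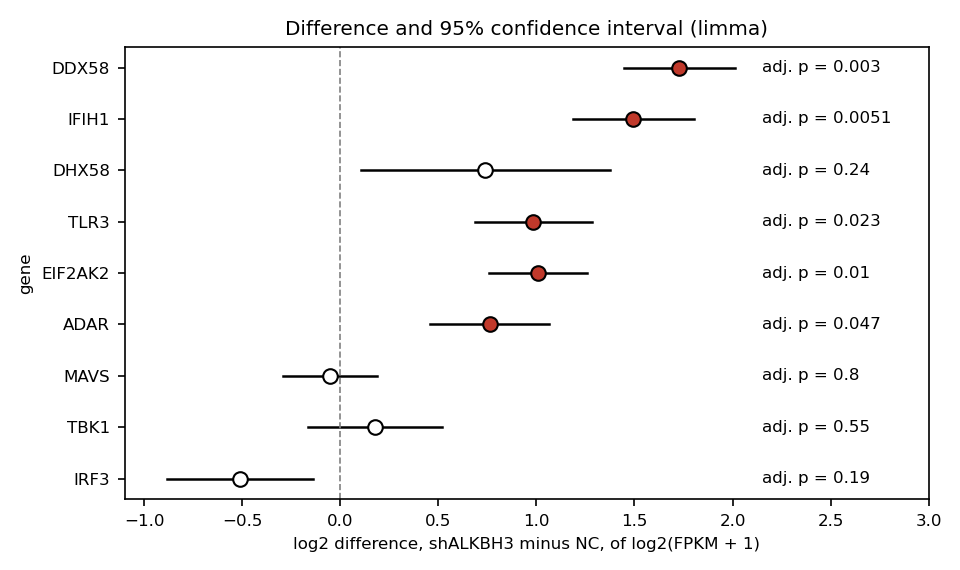
Log2 difference of shALKBH3 minus NC for each of the 9 genes (points, filled where the limma adjusted p is under 0.05) with 95% confidence intervals that are not adjusted for the number of genes (lines). The points run from 1.73 for DDX58 to -0.51 for IRF3, and the intervals of MAVS and TBK1 include 0.

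ADAR (ENSG00000160710, chromosome 1) was at 62.4, 65.3 and 69.3 FPKM in shALKBH3 replicates 1, 2 and 3, against 39.7, 43.9 and 32.1 FPKM in NC replicates 1, 2 and 3. No library of one group reached into the range of the other, and the ratio of means was 1.70. The log2 rise of 0.76 (SE 0.125) stood just inside the threshold at a limma adjusted p of 0.047, and it passed under 6 of 18 alternative settings, with log2 differences from 0.59 to 0.86 over all 18.

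The ADAR sum was shared among 3 listed transcripts whose values switched between libraries. The gene makes a long interferon-inducible form, p150, and a shorter constitutive form, p110. ADAR-202, which encodes 1226 residues, and ADAR-208, which encodes 1200, are of the length of p150, and ADAR-201, which encodes 931, is of the length of p110. ADAR-202 was at 54.1, 51.8 and 3.52 FPKM in shALKBH3 replicates 1, 2 and 3, against 2.84, 33.1 and 28.1 FPKM in NC replicates 1, 2 and 3. ADAR-201 was at 1.37, 1.30 and 51.4 FPKM in shALKBH3 replicates 1, 2 and 3, against 29.2, 0.979 and 1.40 FPKM in NC replicates 1, 2 and 3. In 4 libraries ADAR-202 was thus the leading transcript, and in shALKBH3 replicate 3 and NC replicate 1 ADAR-201 was. ADAR-208 was at 6.93, 12.2 and 14.4 FPKM in shALKBH3 replicates 1, 2 and 3, against 7.63, 9.77 and 2.63 FPKM in NC replicates 1, 2 and 3, and its groups overlapped.

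Transcripts of the p150 length made up 97.8%, 98.0% and 25.8% of the ADAR sum in shALKBH3 replicates 1, 2 and 3, against 26.4%, 97.8% and 95.7% in NC replicates 1, 2 and 3. The difference of group means was 0.608 percentage points (two-sided exact permutation test, p = 0.80, where 3 against 3 cannot go below 0.10). It was -22.8 points without NC replicate 1 and 24.6 points without shALKBH3 replicate 3, so these values do not tell which form carries the rise of the sum. ADAR-201 and ADAR-202 share 6405 exon bases in GENCODE release 29, which leaves 114 bases found in ADAR-201 alone and 205 in ADAR-202 alone, and ADAR-208 has 0 bases that ADAR-202 lacks. None of the 3 transcripts passed when tested singly (limma adjusted p = 0.97 for ADAR-201, 0.90 for ADAR-202 and 0.65 for ADAR-208).

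**Figure D3:**
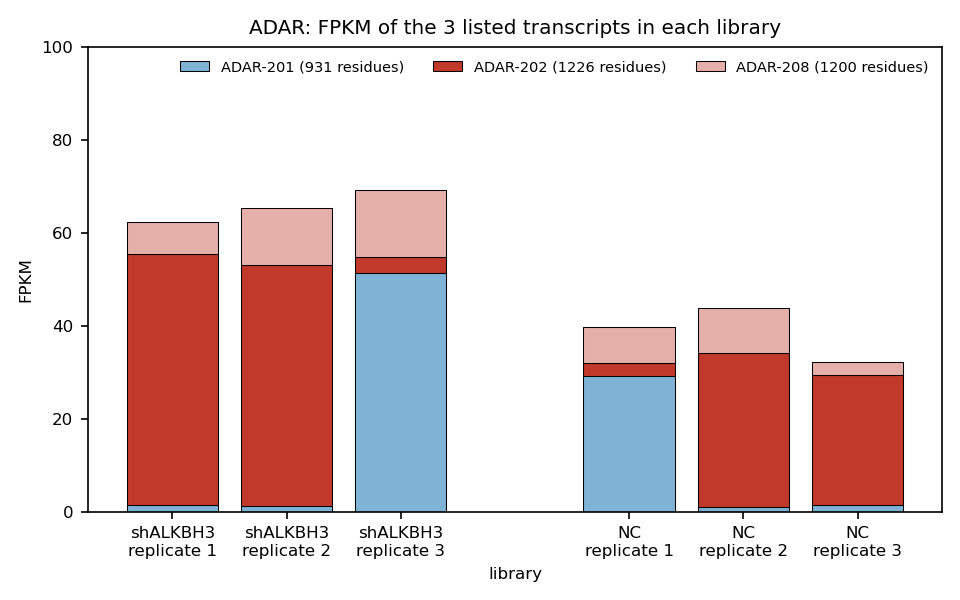
FPKM of the 3 listed ADAR transcripts, stacked, in each shALKBH3 (left) and NC (right) library. The height of the bars is 62.4 to 69.3 FPKM in shALKBH3 and 32.1 to 43.9 FPKM in NC libraries, while the leading transcript is ADAR-201 in shALKBH3 replicate 3 and NC replicate 1 and ADAR-202 in the other 4.

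The adaptor, kinase and transcription factor genes that act after the helicases did not rise. MAVS (ENSG00000088888, chromosome 20) was at 8.09, 7.30 and 7.51 FPKM in shALKBH3 replicates 1, 2 and 3, against 7.27, 8.15 and 8.47 FPKM in NC replicates 1, 2 and 3. The groups overlapped, with a log2 difference of -0.05 (95% confidence interval -0.29 to 0.19, limma adjusted p = 0.80) that turned to 0.030 with equal library sums and to 0.016 with the most abundant transcript. TBK1 (ENSG00000183735, chromosome 12) was at 17.4, 22.9 and 18.3 FPKM in shALKBH3 replicates 1, 2 and 3, against 17.5, 19.0 and 14.8 FPKM in NC replicates 1, 2 and 3. Its groups overlapped too, and the log2 difference was 0.18 (95% confidence interval -0.17 to 0.52, limma adjusted p = 0.55). Another gene on the opposite strand shares 702 exon bases with TBK1 in the annotation, and no source used here says that strand was used in the estimates.

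IRF3 (ENSG00000126456, chromosome 19) was at 9.81, 8.33 and 8.92 FPKM in shALKBH3 replicates 1, 2 and 3, against 10.6, 14.0 and 15.7 FPKM in NC replicates 1, 2 and 3. Every knockdown library lay below every control library, by a narrow gap to NC replicate 1. The log2 difference of -0.51 (95% confidence interval -0.89 to -0.14, not adjusted for the number of genes) did not pass (limma adjusted p = 0.19). IRF3 has 4 listed transcripts, of which IRF3-221 held most of the sum, at 6.66, 4.06 and 6.07 FPKM in shALKBH3 replicates 1, 2 and 3, against 7.74, 11.5 and 13.4 FPKM in NC replicates 1, 2 and 3. IRF3-220 ran the other way, at 1.82, 2.71 and 1.69 FPKM in shALKBH3 replicates 1, 2 and 3, against 1.45, 0.659 and 0.973 FPKM in NC replicates 1, 2 and 3, and neither passed singly (limma adjusted p = 0.41 for IRF3-221 and 0.52 for IRF3-220). BCL2L12 on the opposite strand shares 734 exon bases (19.4%) with IRF3, so the IRF3 values are less certain.

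Of the 22 listed transcripts of the 9 genes, 17 had a mean of at least 1 FPKM and were tested singly, and 2 of them rose and 0 fell, where 0.35% of all 19698 transcripts tested rose. Before adjustment, 7 of the 17 were higher and 1 lower at a limma p below 0.05, as were 4.99% and 4.75% of all transcripts tested. With 1 library left out 1 transcript rose without shALKBH3 replicate 1 and 0 without any of the others. The 2 that rose were IFIH1-201, the full-length MDA5 transcript with 1025 residues (67.2 ± 8.16 FPKM in shALKBH3 and 23.2 ± 2.49 FPKM in NC, SD, log2 1.49, limma adjusted p = 0.023), and DDX58-202, which encodes 925 residues (39.9 ± 7.64 FPKM in shALKBH3 and 9.51 ± 2.39 FPKM in NC, SD, log2 1.97, limma adjusted p = 0.046). The more abundant DDX58-201, with 722 residues, was at 49.2 ± 10.95 FPKM in shALKBH3 and 16.7 ± 5.32 FPKM in NC (SD, 3 libraries each), with a log2 difference of 1.52 that did not pass singly (limma adjusted p = 0.14). Taking that transcript in place of the gene sum therefore lost the DDX58 call (adjusted p = 0.092 over the genes tested that way in limma). IFIH1-201 made up 88.5% to 90.5% of the IFIH1 sum in shALKBH3 and 88.4% to 90.4% in NC libraries, so the split between its transcripts hardly moved between libraries, unlike that of ADAR. EIF2AK2-201 led its gene with 60.1 ± 4.66 FPKM in shALKBH3 and 29.1 ± 4.39 FPKM in NC (SD, limma adjusted p = 0.065). MAVS-202 was at 7.52 ± 0.228 FPKM in shALKBH3 and 7.46 ± 0.907 FPKM in NC (SD, limma adjusted p = 0.98), and DHX58-201 at 3.51 ± 2.32 FPKM in shALKBH3 and 1.91 ± 0.973 FPKM in NC (SD, limma adjusted p = 0.70). TLR3-201 and TBK1-201 are the only listed transcripts of their genes.

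The order of the 9 genes by level, which FPKM allows because it is scaled to length, differed at the top between the groups. In shALKBH3 libraries DDX58 had the highest mean at 89.2 FPKM, before IFIH1 at 74.9, EIF2AK2 at 67.0 and ADAR at 65.7 FPKM, and each of these overlapped its neighbour in the order. In NC libraries ADAR came first at 38.6 FPKM, before EIF2AK2 at 32.8, DDX58 at 26.2 and IFIH1 at 25.9 FPKM, with overlap within the first pair and within the second pair. TBK1, IRF3, MAVS, DHX58 and TLR3 followed in that order of means in both groups. Among these, MAVS overlapped DHX58 in shALKBH3 libraries, and TBK1 overlapped IRF3 in NC libraries.

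Ratios taken within a library do not depend on how the library was scaled, apart from the added 1 FPKM. The log2 ratio of DDX58 to IFIH1 was 0.32, 0.24 and 0.19 in shALKBH3 replicates 1, 2 and 3, against -0.0025, 0.033 and 0.017 in NC replicates 1, 2 and 3. DDX58 was thus slightly above IFIH1 in each knockdown library and level with it in each control, a mean difference of 0.24 that became 0.030 with the most abundant transcripts. The log2 ratio of DDX58 to its adaptor gene MAVS was 3.38 ± 0.194 in shALKBH3 and 1.60 ± 0.224 in NC (SD, 3 libraries each), and that of EIF2AK2 to EIF2AK3 was 3.32 ± 0.0105 in shALKBH3 and 2.63 ± 0.0820 in NC. The log2 ratio of EIF2AK2 to ADAR was 0.027 ± 0.0834 in shALKBH3 and -0.22 ± 0.113 in NC (SD, 3 libraries each). For all 4 ratios every knockdown library was above every control, and the two-sided exact permutation p was 0.10 (0.10 after Benjamini-Hochberg adjustment over the 4), the smallest that 3 against 3 allows. The ratios to MAVS and EIF2AK3 set a gene that rose against one that did not pass. They were chosen with earlier results known, so they restate the gene calls and add no support to them. With the most abundant transcripts the difference of the EIF2AK2 to ADAR ratio was 0.44 (exact p = 0.50), against 0.25 with gene sums, and that of EIF2AK2 to EIF2AK3 was 1.26 (exact p = 0.10), against 0.69.

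Genes among those with the most similar pattern over the 6 libraries were listed by Pearson's r of log2 values, as a description of libraries that fall into groups. For DDX58 these included DDX60 (r = 0.9994) and HERC6 (0.9987). For IFIH1 they included RIPK1 (0.9996) and TFPI (0.9986), and for EIF2AK2 they were RASGRP3 (0.9983), DDX60 (0.9981) and IFIH1 (0.9979). For ADAR they were HIST2H2BE (0.9986), IMPAD1 (0.9972) and FAM49A (0.9968), and HIST2H2BE has near-identical copies. A high r does not mean a change of like size, since RIPK1 had a log2 difference of 0.21 (limma adjusted p = 0.28) beside 1.49 for IFIH1.

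The wider pathway was described through 8 lists of genes that act with the 9 or beside them. Of 160 further genes tested in these lists 15 rose and 3 fell, with a median log2 difference of 0.04, where 1.28% of all genes tested rose and 0.477% fell. Of the list genes 9 rose without NC replicate 1 or without shALKBH3 replicate 3, and 1 fell with any single library left out. Among 34 tested cofactors of the RIG-I-like receptors 4 rose, 1 fell and 29 did not pass. DDX60, an interferon-induced helicase, was at 44.3 ± 4.33 FPKM in shALKBH3 and 12.8 ± 1.61 FPKM in NC (SD, 3 libraries each, log2 1.72, limma adjusted p = 0.0033). TRIM25, a ubiquitin ligase known to act on RIG-I, rose by 0.52 (limma adjusted p = 0.047), the zinc-finger antiviral protein gene ZC3HAV1 by 0.51 (0.047) and TRIM38 by 0.65 (0.027). PPP1CC, a phosphatase subunit gene whose protein removes phosphates from RIG-I and MDA5, fell to 65.5 ± 3.61 FPKM in shALKBH3, against 88.1 ± 1.12 FPKM in NC (SD, 3 libraries each, log2 -0.42, limma adjusted p = 0.048).

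Of 38 tested adaptors, kinases and transcription factors of the signalling steps, 0 fell, where 0.477% of all genes tested did. At a limma p below 0.05 before adjustment, 7 of them were higher and 1 lower, beside 8.98% and 8.15% of all genes. OPTN, a ubiquitin-binding adaptor gene named here after its values were seen, had a log2 difference of 0.35 that did not pass (limma adjusted p = 0.11). Of 13 tested genes of the TLR3 branch and other Toll-like receptors 0 passed in limma. Before adjustment 4 of them were higher and 0 lower at a p below 0.05, where 8.98% and 8.15% of all genes were, and the median log2 difference was 0.35. The smallest adjusted p among them was that of HSP90B1, an endoplasmic reticulum chaperone of Toll-like receptors (log2 0.42, limma adjusted p = 0.058).

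Around PKR, 1 of 22 tested genes of eIF2 alpha phosphorylation fell and 0 rose, where 0.477% and 1.28% of all genes tested did. NPM1, a nucleolar protein gene, was at 673 ± 30.9 FPKM in shALKBH3 and 872 ± 8.99 FPKM in NC (SD, 3 libraries each, log2 -0.37, limma adjusted p = 0.047). That fall stood just inside the threshold. Over the 8 lists 3 genes fell with all libraries, and 1 fell with any single library left out. Around ADAR, 0 of 21 tested genes of RNA editing and duplex RNA binding passed in limma, and before adjustment 0 were higher and 3 lower at a p below 0.05, beside the same 8.98% and 8.15% of all genes. The smallest adjusted p was that of AIMP2 (log2 -0.35, limma adjusted p = 0.15), a scaffold gene of the tRNA synthetase complex. The second editing enzyme gene, ADARB1, was below the level tested, at 0.797 to 1.21 FPKM in shALKBH3 and 0.386 to 1.50 FPKM in NC libraries.

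Where 1.28% of all genes tested rose, 4 of 7 tested genes of the OAS family, RNase L and its regulators did. The median log2 difference of the 7 was 1.58. The 4 that rose were OAS3 (90.8 ± 2.13 FPKM in shALKBH3 and 28.2 ± 2.90 FPKM in NC, SD, 3 libraries each, log2 1.66), OASL (log2 1.58), OAS2 (1.61) and OAS1 (1.83), with limma adjusted p-values from 0.0017 to 0.023. Of 15 tested genes of cytosolic DNA sensing 2 rose, SAMHD1, a nucleotide-cleaving restriction factor (log2 1.15, limma adjusted p = 0.0030), and IFI16, a DNA-binding sensor (log2 1.05, 0.026). A further list of 18 genes was labelled as antiviral output downstream of IRF3, and whether IRF3 acts on each of them was not tested. Of its 10 tested genes 4 rose and 1 fell, beside 1.28% and 0.477% of all genes tested. Those that rose were IFIT1, IFIT2, IFIT3 and the ubiquitin-like modifier gene ISG15, by 1.51 to 1.93 (limma adjusted p from 0.0011 to 0.017), and the chemokine gene CXCL8 fell by 1.01 on the log2 scale (limma adjusted p = 0.0030). The chemokine genes CXCL10 and CXCL11 were below the level tested. CXCL10 was at 0 FPKM in every library except NC replicate 1, at 3.09 FPKM. CXCL11 was at 0, 0 and 0.132 FPKM in shALKBH3 replicates 1, 2 and 3, against 2.61, 0 and 0 FPKM in NC replicates 1, 2 and 3. The interferon genes IFNB1, IFNL1, IFNL2 and IFNL3 were looked up and had no listed transcript, nor had CCL5 and RSAD2.

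**Figure D4:**
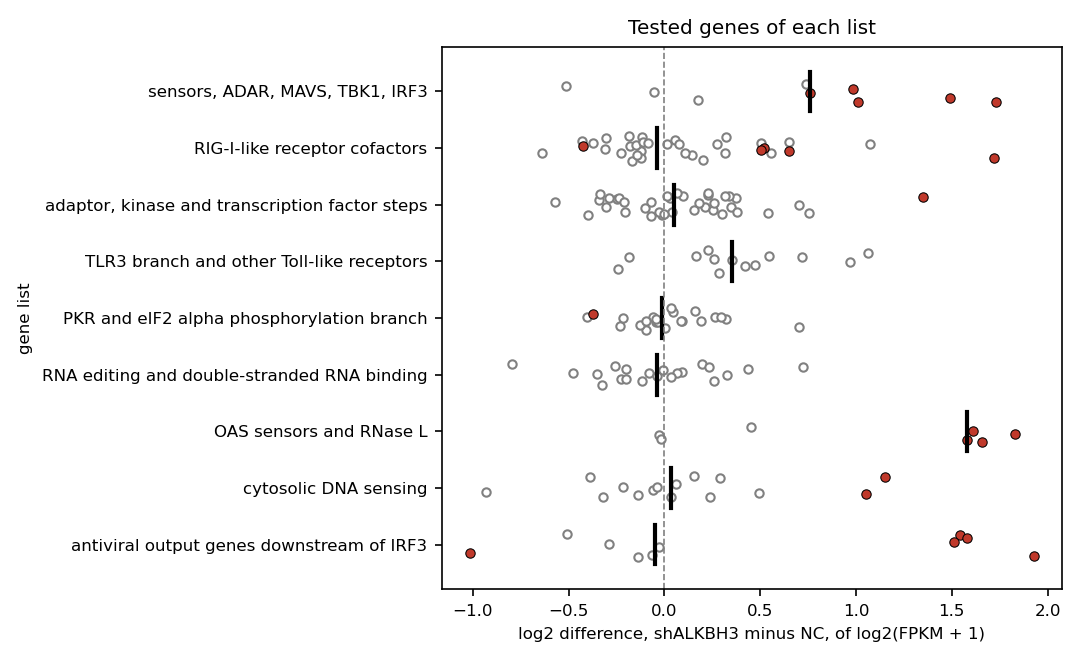
Log2 difference of shALKBH3 minus NC for every tested gene of the 9 described (top row) and of the 8 pathway lists; points are genes, filled red where the limma adjusted p is under 0.05, spread vertically for legibility, and black bars are list medians. The median is 0.76 in the top row and 1.58 in the OAS list, and lies between -0.05 and 0.35 in the other 7 lists.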

How the data were processed

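RNA from 6 libraries of 92.1 cells was sequenced after fragmentation, random priming and dUTP second-strand synthesis, per the labels' protocols. The authors deposited FPKM per transcript, per the file headers. The submitters' processing notes name hg19, HTSeq 0.6.0 and DESeq2 without a role for each, and neither the aligner nor the tool behind the FPKM is given there (not given in the sources used here). The tables list 28900 transcripts, and the higher group mean of each matched one is at least 0.5 FPKM. Values are FPKM without counts, so depth is unknown and no counting interval is given.

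Of the 28900 transcripts 28796 (99.6%) matched GENCODE release 29 (GRCh38) by identifier, used for names, lengths and exon overlap, and FPKM were summed per gene. Genes averaging 1 FPKM or more were tested as log2(FPKM + 1) with limma 3.58.1 in R 4.3.3 (variance trend, two-sided, Benjamini-Hochberg over all genes tested, threshold 0.05), checked on simulated data. Transcripts were tested alike. Percentages and ratios were compared by exact permutation over libraries (Python 3.11.15, pandas 2.3.3, numpy 2.4.6). Plots used matplotlib 3.10.9.

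The 9 genes, the 8 lists and the tests were chosen with earlier results of these data known. Named by rule were the 9 genes, ALKBH3, list genes past the threshold (or, where fewer than 2 passed, the smallest adjusted p), all ADAR transcripts and the leading transcript of the other 8 genes, and the 3 most similar genes of 4 of them. A gene that the rule names is not reported here. Alternatives were other pseudocounts, filters, scalings, variance models, the most abundant transcript, a correction for length and GC content, a replicate block and leaving out each library.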

Additional observations from a re-analysis of the deposited data

How the results depend on the processing

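MAVS changed sign with equal library sums (log2 0.030) and with the most abundant transcript (0.016), and the other 8 genes kept their direction in the alternatives run, which for TLR3 and DHX58 leave out the minimum mean of 5 FPKM that neither reaches. With single libraries left out, and so fewer samples, 39 to 87 genes rose and 9 to 22 fell, 2 or 3 of the 9 genes rose, 9 to 11 list genes rose and 1 fell, 0 or 1 transcript of the 9 genes rose, and the p150-length share of ADAR differed by -22.8 to 24.6 points. With the most abundant transcript the log2 ratios of DDX58 to IFIH1, EIF2AK2 to ADAR and EIF2AK2 to EIF2AK3 differed by 0.030, 0.44 and 1.26, and 80 genes rose and 25 fell, 3 of the 9 genes rose and 1 list gene fell. Equal library sums left 24 genes and 1 list gene lower, quantile normalization 1 list gene lower and 1 transcript higher, and no variance trend 27 genes and 1 list gene lower and 1 transcript higher. Array weights gave 320 genes higher and 160 lower, and the correction for length and GC content 81 lower. A pseudocount of 0.1, or no filter, left 1 transcript higher. The cause of these shifts was not tested.

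Correlations of deviations from the group means gave no sign that replicate numbers pair the libraries, at -0.09, 0.08 and -0.01 for numbers 1, 2 and 3. With 3 libraries per group they cannot show that pairing is absent. With the replicate block 17 genes rose and 3 fell, 1 of the 9 genes (DDX58) rose, 7 list genes rose and 0 fell, 0 transcripts rose, the ADAR share differed by 0.608 points and the 4 log2 ratios by 0.24, 1.78, 0.25 and 0.69 as in the report. With the replicate block and the correction for length and GC content 33 genes rose and 4 fell, 3 of the 9 rose, and 9 list genes rose and 1 fell.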

Other observations

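The response-element letters described in the report were counted over all tested genes with a RefSeq window, without a test. Of 101 such genes that rose, 32 (31.7%) held them, and of all 8730 such genes 351 (4.02%) did. IRF7, IRF9 and PRKRA, named after their values were seen, differed between libraries of a group. IRF7 was at 7.80, 4.02 and 6.67 FPKM in shALKBH3 replicates 1, 2 and 3, against 2.83, 2.53 and 4.82 FPKM in NC replicates 1, 2 and 3 (limma adjusted p = 0.28). IRF9 was at 4.42, 18.4 and 6.94 FPKM in shALKBH3 replicates 1, 2 and 3, against 11.5, 2.35 and 5.42 FPKM in NC replicates 1, 2 and 3 (limma adjusted p = 0.68). The PKR activator gene PRKRA was at 10.4, 15.4 and 15.5 FPKM in shALKBH3 replicates 1, 2 and 3, against 17.9, 3.93 and 21.4 FPKM in NC replicates 1, 2 and 3 (limma adjusted p = 0.88).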
